A study of Mus musculus with 9 samples.

Results

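The genes described here make fatty acids, triglycerides, wax esters and cholesterol. A list of 41 was read on whole-skin arrays, and 37 of them were measured among the 30142 genes of the table. A gene counted as measured where a transcript cluster, the array's unit of about a gene, carried exactly 1 gene symbol in the platform annotation, and the cluster with the highest mean over 9 arrays stood for it. Scd2, Msmo1 and Srebf1 lie on clusters with several symbols and Soat1 on none with 1 symbol, so these 4 were not analysed here. By role, the measured genes were 14 of fatty acid synthesis, elongation and desaturation, 8 of ester synthesis, 12 of the sterol pathway and 3 regulators. The first 22 are called the fatty acid and ester arm, and the 12 the sterol arm.

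Fatty acids are built from acetyl-CoA, which ATP citrate lyase (Acly) supplies. Acetyl-CoA carboxylase (Acaca, Acacb) turns it into malonyl-CoA, from which fatty acid synthase (Fasn) builds the chains. Elongases (Elovl genes) and desaturases (Scd and Fads genes) then shape the chains, and acyltransferases (Gpam, Agpat2, Dgat1, Dgat2, Awat1, Awat2) attach them to glycerol or to fatty alcohols, which Far2 makes. Cholesterol starts from the same acetyl-CoA, through Hmgcs1, the isoprenoid steps (Mvk, Mvd, Idi1, Fdps), squalene (Fdft1, Sqle) and the sterol ring (Lss, Cyp51, Nsdhl, Sc5d, Dhcr7). The SREBP transcription factors (Srebf1, Srebf2) switch both routes on, Insig1 holds them back, and Pparg drives the making of sebocytes and adipocytes. In skin, sebaceous glands make triglycerides, wax esters and squalene, dermal adipocytes store triglycerides, and keratinocytes make the cholesterol and fatty acids of the barrier.

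Neck skin of male C57BL/6 mice aged 6 to 8 weeks was taken as a whole-tissue extract, 3 arrays in each of 3 groups, and its total RNA was hybridised to Affymetrix arrays. Control skin is labelled healthy. The oxazolone and urushiol groups had allergic contact dermatitis: 2.0% of the allergen was put on the shaved abdomen, and from 5 days later 0.5% in 40 µl acetone was painted on the shaved nape for 5 challenges up to day 8, with skin taken 4 hours after the last. Oxazolone is a synthetic hapten and urushiol the allergen of poison ivy. The sources used here do not say if the controls were shaved or had acetone. The comparisons ask what each allergen model changed against healthy skin, and whether the models differed. The labels call the samples of a group biological replicates.

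Values are log2 expression values, and ± gives the standard error of the difference of 2 group means (n = 3 arrays each) on that scale unless SD is named. "Rose" and "fell" are used for an adjusted p under 0.05, from limma's moderated test with Benjamini-Hochberg adjustment over 30142 genes. Across all genes the median difference was 0.06 for oxazolone and 0.04 for urushiol against control. The table runs to 19.93, above the log2 limit of 16 for a 16-bit scanner, and no source used here names the step that gives such values, so a log2 difference may not be the log2 ratio of RNA amounts. Scd1 lies above 16 on 8 of 9 arrays, Elovl6 on 3, Elovl7 on 2 and Far2 on 1. Keratinocyte markers were present on all arrays, with Krt5 between 17.52 and 18.79. Control array 3 differed from control arrays 1 and 2 in its hair follicle markers, whose mean (each gene centred on its 9 arrays) was 1.14 against -4.11 and -4.00. The oxazolone arrays read 0.71, 3.45 and 1.61 and the urushiol arrays 0.17, 0.83 and 0.20, so control array 3 was the control most like them. Results that rest on it are given with and without it. With all arrays the group means were -2.33 in control skin, 1.93 with oxazolone and 0.40 with urushiol. With or without control array 3, a difference in hair follicle markers and the challenge cannot be told apart. This holds for every comparison with control below. In whole skin, fewer cells of a type and less RNA per cell cannot be told apart.

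Challenged skin of both models held less of a set of fatty acid and ester genes than control skin, while no sterol gene passed as lower. Against control, 2 of the 37 genes rose and 7 fell in oxazolone skin, where 9.63% of all genes rose and 6.92% fell (16.6% in all). In urushiol skin 3 rose and 8 fell, against 9.96% and 6.43% of all genes (16.4% in all). Oxazolone and control arrays did not overlap for 4 genes that were higher and 9 that were lower, against 21.3% and 11.5% of all genes (32.8% in all). For urushiol these were 8 and 12 genes, against 21.1% and 11.8% (32.9% in all). An unadjusted p under 0.05 was found for 16 and 18 of the 37, against 34.1% and 32.2% of all genes. All of the falls, and 1 rise in each model (Elovl7), were in the fatty acid and ester arm, with a median difference of -0.45 for oxazolone and -0.87 for urushiol over its 22 genes. The other rises were in the sterol arm, whose 12 genes had a median of 0.01 for oxazolone and 0.51 for urushiol. The oxazolone and urushiol comparisons share the 3 control arrays, so their likeness is not independent. The number of fatty acid and ester genes that fell with urushiol was 8, and 4, 5, 4 and 5 without control array 1, control array 2, urushiol array 1 and urushiol array 2. Over all genes the split depends on scaling: 2904 rose and 2085 fell with oxazolone as deposited, and 2127 and 2937 after quantile renormalisation, while with urushiol 3003 and 1939 became 2297 and 2341. Among the 37 genes the counts after quantile renormalisation were 2 higher and 9 lower with oxazolone, and 3 and 8 with urushiol. The sterol median with oxazolone became -0.16.

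**Figure D1:**
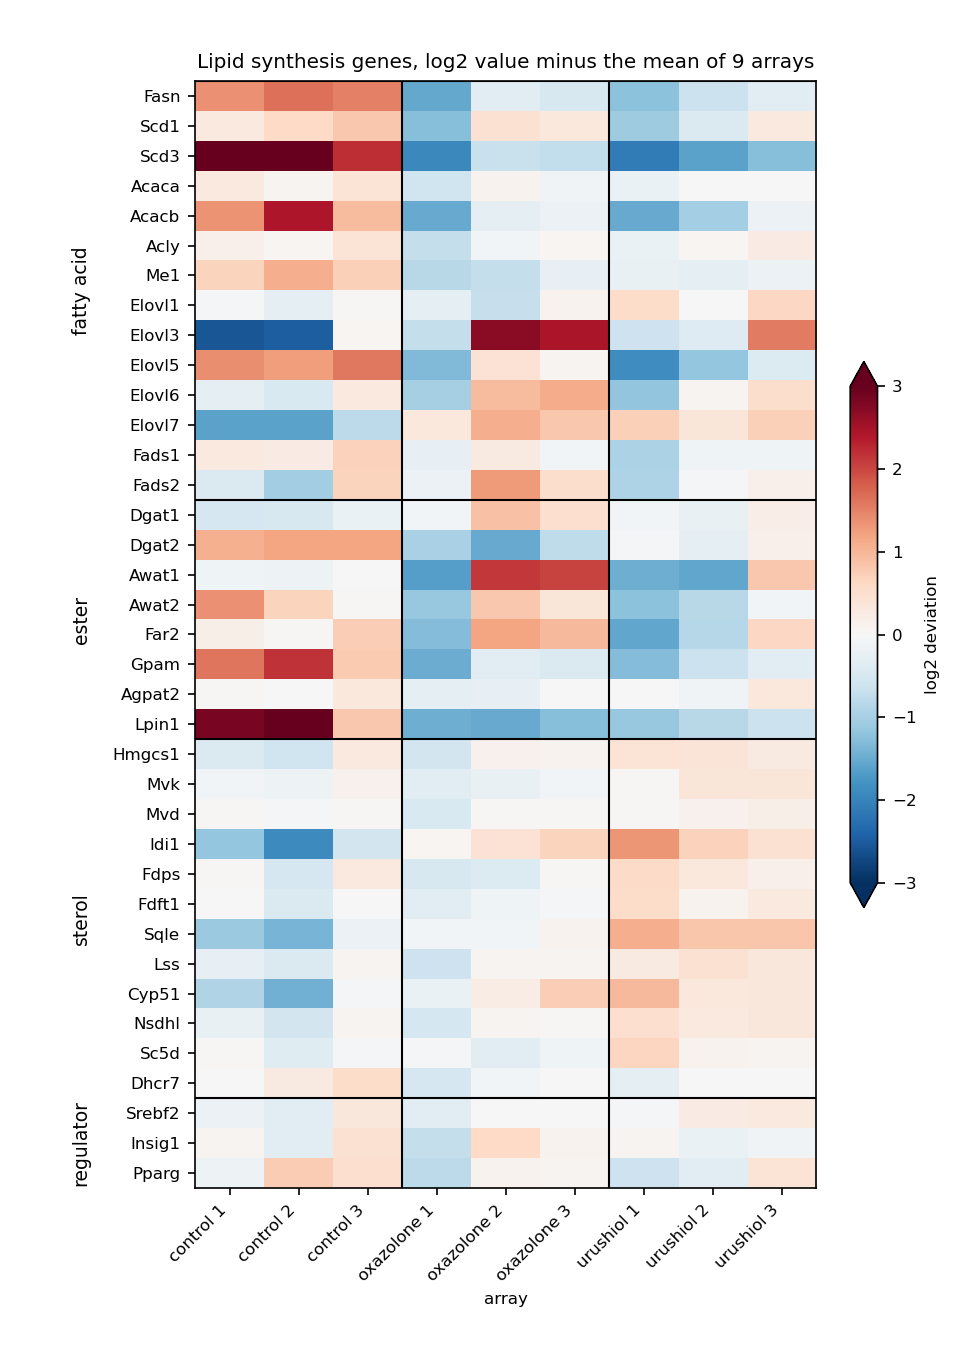
Heat map of the 37 measured genes (rows, grouped by role) on 9 arrays (columns), coloured by log2 value minus the gene's mean over 9 arrays; colours saturate at a deviation of 3. Fasn, Scd3, Lpin1 and Gpam are red on the 3 control arrays and blue on the 6 challenged arrays, and most sterol genes are reddest in the urushiol columns.

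The deepest fall among the 37 genes was that of Scd3, a stearoyl-CoA desaturase, which puts the double bond into saturated fatty acids and is known from sebaceous glands. It read 13.91, 14.02 and 13.12 in control skin, 8.99, 10.25 and 10.18 with oxazolone, and 8.81, 9.30 and 9.64 with urushiol. Every challenged array lay below every control array. Scd3 fell by 3.88 ± 0.41 in oxazolone skin (adjusted p = 0.00241) and fell by 4.43 ± 0.41 in urushiol skin (adjusted p = 0.00142). Its near relative Scd1 read 17.42, 17.73 and 17.93 in control skin, 15.86, 17.59 and 17.45 in oxazolone skin and 16.05, 16.69 and 17.42 in urushiol skin. These groups overlap for oxazolone and touch for urushiol, and the differences of -0.73 ± 0.52 (adjusted p = 0.369) and -0.97 ± 0.52 (adjusted p = 0.252) did not pass. A second Scd1 cluster gave -0.75 ± 0.75 and -1.35 ± 0.75. Scd genes are close copies of each other, so their probes may share signal.

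Fasn, the multienzyme that builds palmitate, fell in both models. The gene read 12.22, 12.51 and 12.36 in healthy skin, 9.31, 10.51 and 10.37 with oxazolone, and 9.62, 10.21 and 10.51 with urushiol. The control arrays are tight (SD 0.15) and lie apart from all 6 challenged arrays. Fasn fell by 2.30 ± 0.35 (adjusted p = 0.00796) with oxazolone and by 2.25 ± 0.35 (adjusted p = 0.00817) with urushiol. Me1, the malic enzyme that supplies NADPH for the synthesis, read 14.10, 14.51 and 14.13 in control skin, 12.60, 12.71 and 13.17 with oxazolone and 13.21, 13.12 and 13.24 with urushiol. It fell by 1.42 ± 0.17 (adjusted p = 0.00335) and 1.06 ± 0.17 (adjusted p = 0.00877). The supply enzymes just before Fasn did not pass. Acly stood at -0.45 ± 0.22 (adjusted p = 0.202) and -0.17 ± 0.22 (adjusted p = 0.671), and Acaca at -0.46 ± 0.18 (adjusted p = 0.126) and -0.32 ± 0.18 (adjusted p = 0.284). Acaca passed for oxazolone after quantile renormalisation (adjusted p = 0.0323).

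Acacb, the carboxylase isoform at the mitochondrial membrane that is known from muscle and adipose tissue, read 9.50, 10.58 and 9.12 in control skin, 6.65, 7.86 and 7.98 with oxazolone and 6.64, 7.15 and 7.98 with urushiol. Both challenged groups lie below all controls, with a wide spread in every group (SD 0.68 to 0.76). Acacb fell by 2.24 ± 0.54 (adjusted p = 0.0338) and 2.48 ± 0.54 (adjusted p = 0.025), and these calls depended on single arrays. With oxazolone the adjusted p was 0.0839 when control array 1 was left out, 0.1 for control array 2, 0.0912, 0.069 and 0.065 for oxazolone arrays 1 to 3, and 0.0583 for urushiol array 2. With urushiol it was 0.0652 and 0.0748 when control array 1 or 2 was left out, and 0.0859 and 0.0692 for the first 2 urushiol arrays. In limma fits of the 2 groups alone it was 0.0754 with oxazolone and 0.0604 with urushiol.

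The elongases went different ways. Elovl5, which extends polyunsaturated chains, read 13.87, 13.73 and 14.06 in control skin, 11.15, 12.90 and 12.56 with oxazolone and 10.61, 11.32 and 12.06 with urushiol. All challenged arrays were below the controls. It fell by 2.56 ± 0.51 with urushiol (adjusted p = 0.0189), while -1.68 ± 0.51 with oxazolone missed the threshold (adjusted p = 0.0652); the difference between the models, -0.87 ± 0.51, did not pass either (adjusted p = 0.974). The urushiol call of Elovl5 was lost without control array 1 (0.0606) or 2 (0.0578) and without urushiol array 1 (0.0634) or 2 (0.0538), and the oxazolone difference passed after quantile renormalisation (adjusted p = 0.0302) with a filter on dim genes (adjusted p = 0.0377) and with the replicate number as a block (adjusted p = 0.0439). Elovl7, an elongase of very long saturated chains, was the 1 gene of this arm that rose. It read 13.67, 13.68 and 14.49 in control skin, 15.61, 16.37 and 16.10 with oxazolone and 15.99, 15.64 and 15.99 with urushiol. No challenged array overlapped the controls, and Elovl7 rose by 2.08 ± 0.28 (adjusted p = 0.00499) and 1.93 ± 0.28 (adjusted p = 0.00624).

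Elovl3, which makes the long saturated chains of sebum, varied widely inside the groups. It read 10.22, 10.30 and 12.83 in control skin, 12.07, 15.49 and 15.22 with oxazolone and 12.17, 12.40 and 14.33 with urushiol. Control array 3 stands with the lower challenged arrays, and the groups overlap. The differences were 3.14 ± 1.16 (adjusted p = 0.105) and 1.85 ± 1.16 (adjusted p = 0.327), and without control array 3 the oxazolone difference became 4.0 (adjusted p = 0.0499). It also passed with the replicate number as a block (adjusted p = 0.0439). Elovl6, which turns palmitate into stearate, stood at 0.51 ± 0.66 and -0.04 ± 0.66, and the broadly expressed Elovl1 at -0.18 ± 0.24 and 0.50 ± 0.24, none of which passed. The urushiol difference of Elovl1 passed with the replicate number as a block (adjusted p = 0.0362). Of the desaturases of polyunsaturated chains, Fads1 stood at -0.43 ± 0.26 and -0.82 ± 0.26 (adjusted p = 0.0752 for urushiol, and 0.0449 with a filter on dim genes), and Fads2 at 0.81 ± 0.55 and -0.01 ± 0.55.

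**Figure D2:**
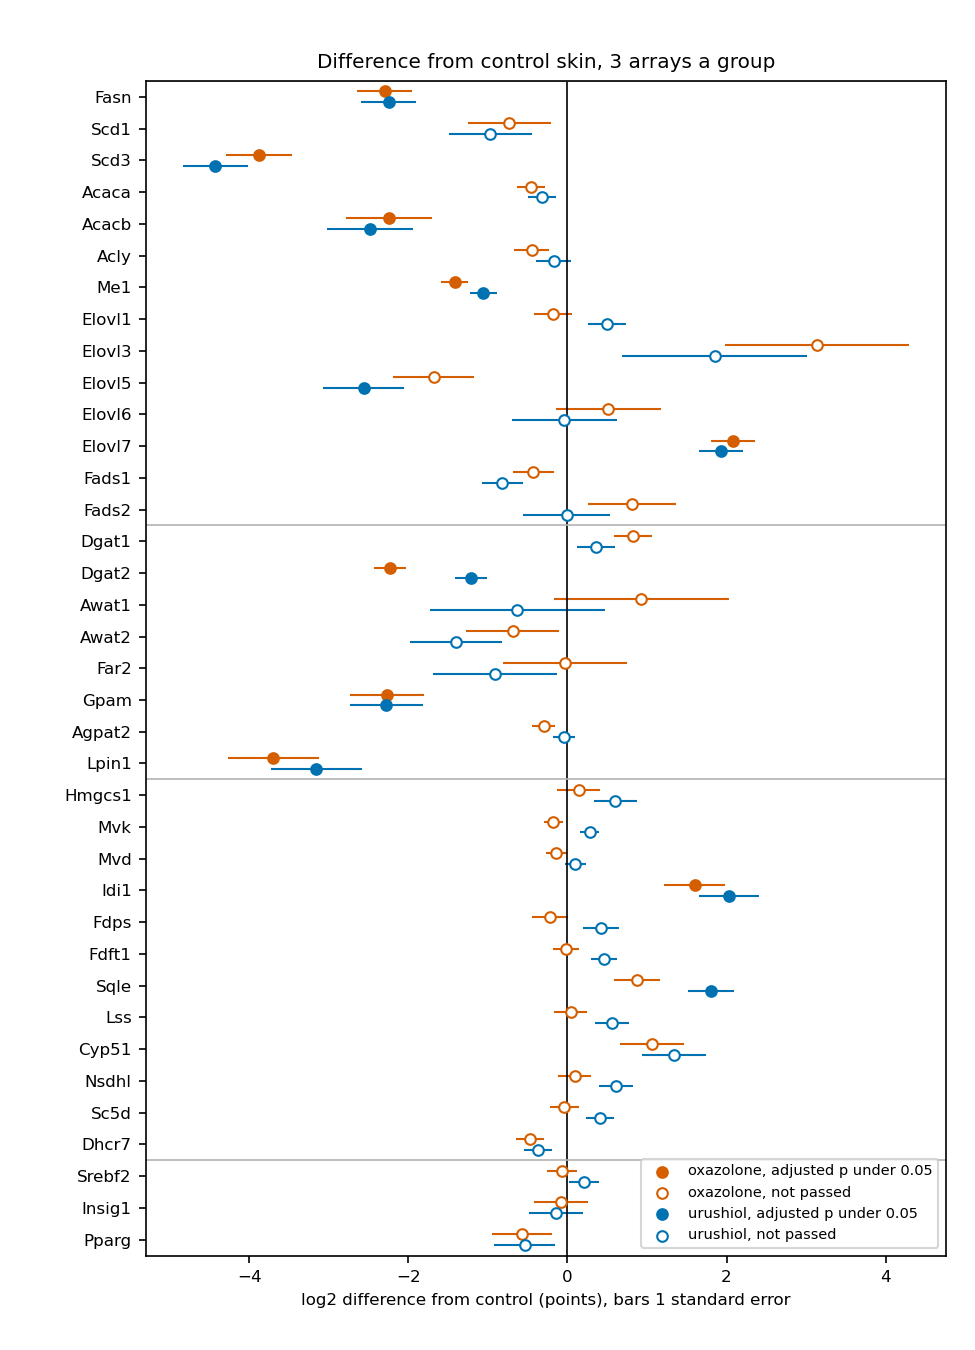
Log2 difference from control skin (points) with 1 standard error (bars) for the 37 genes, oxazolone in orange and urushiol in blue; filled points have an adjusted p under 0.05. Filled points lie on the left for 8 genes of the fatty acid and ester arm and on the right for Elovl7, Idi1 and Sqle.

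Of the 8 ester genes, Lpin1, Gpam and Dgat2 of the glycerol route fell in both models, and Dgat1, Agpat2 and the wax ester genes did not pass. Lpin1, the phosphatidate phosphatase that makes diacylglycerol, read 11.05, 11.39 and 9.0 in control skin, 6.74, 6.69 and 6.92 with oxazolone and 7.06, 7.36 and 7.54 with urushiol. Control array 3 lay below the other controls, but above all challenged arrays. Lpin1 fell by 3.70 ± 0.57 (adjusted p = 0.00831) and fell by 3.16 ± 0.57 (adjusted p = 0.0132). The urushiol call was lost without control array 1 (adjusted p = 0.0506) or urushiol array 1 (adjusted p = 0.0533). It was also lost in a limma fit of the 2 groups alone (adjusted p = 0.0624). Gpam, the mitochondrial enzyme that starts glycerolipid synthesis, read 11.30, 11.86 and 10.47 in control skin, 8.20, 9.36 and 9.25 with oxazolone and 8.39, 9.05 and 9.36 with urushiol. It fell by 2.27 ± 0.46 (adjusted p = 0.0203) and 2.28 ± 0.46 (adjusted p = 0.0196). The oxazolone call of Gpam was lost without control array 1 (0.0687) or 2 (0.0657) and oxazolone array 1 (0.057), and the urushiol call without control array 1 (0.0656) or 2 (0.064) and urushiol array 1 (0.0698) or 2 (0.051). Both calls of Gpam were lost in limma fits of the 2 groups alone (adjusted p = 0.06 with oxazolone and 0.051 with urushiol).

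Dgat2, which closes the triglyceride with its last acyl chain, had closely spaced control values of 13.71, 13.82 and 13.81 (SD 0.06), against 11.65, 11.12 and 11.88 with oxazolone and 12.58, 12.34 and 12.79 with urushiol. The 3 groups form 3 separate bands, with urushiol in the middle. Dgat2 fell by 2.23 ± 0.20 with oxazolone (adjusted p = 0.00132) and by 1.21 ± 0.20 with urushiol (adjusted p = 0.00956). The difference of 1.02 between the models (95% interval 0.55 to 1.49) had an unadjusted p = 0.00122 by limma and did not pass over all genes (adjusted p = 0.273). Dgat1, which catalyses the same step without sequence kinship, stood at 0.82 ± 0.24 (adjusted p = 0.0578) and 0.36 ± 0.24 (adjusted p = 0.362); the oxazolone difference passed without oxazolone array 1 (1.08, adjusted p = 0.0231) and with a filter on dim genes (adjusted p = 0.0344). Agpat2, which adds the second acyl chain, stood at -0.30 ± 0.14 and -0.04 ± 0.14, and passed for oxazolone with the replicate number as a block (adjusted p = 0.0248).

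The wax ester genes of sebum split the arrays within each model. Awat1, a wax synthase, read 10.06, 10.02 and 10.16 in control skin, 8.53, 12.31 and 12.20 with oxazolone and 8.71, 8.63 and 11.00 with urushiol. Oxazolone array 1 and urushiol arrays 1 and 2 were below all controls and the other 3 challenged arrays above them. Far2, which makes the fatty alcohol of the ester, had oxazolone array 1 and urushiol arrays 1 and 2 below all controls too, at 15.09, 14.96 and 15.65, then 13.63, 16.10 and 15.89, then 13.37, 14.06 and 15.53. Group differences of Awat1 (0.93 ± 1.10 and -0.63 ± 1.10) and Far2 (-0.03 ± 0.78 and -0.91 ± 0.78) did not pass. Awat2, the other wax synthase, stood at -0.69 ± 0.58 and -1.40 ± 0.58, and its 3 urushiol arrays (6.42, 6.82 and 7.57) lay below its controls (9.02, 8.32 and 7.67).

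The same division between arrays ran through most of the arm. Oxazolone array 1 was the lowest oxazolone array for 19 of the 22 fatty acid and ester genes, and urushiol array 3 the highest urushiol array for 20 of 22. The mean of the 22 genes, each centred on its 9 arrays, was 0.47, 0.51 and 0.60 on the control arrays, -0.92, 0.27 and 0.23 on the oxazolone arrays and -0.80, -0.48 and 0.12 on the urushiol arrays. The mean of 10 sebaceous gland markers that are not in the list of 41 was -0.10, -0.03 and 0.37, then -0.73, 0.66 and 0.66, then -0.66, -0.39 and 0.22. Mc5r, the melanocortin receptor of sebocytes, read 7.92, 7.95 and 8.16, then 6.38, 8.61 and 7.84, then 6.35, 6.89 and 7.89, and Fa2h, the fatty acid hydroxylase of sebum, read 11.50, 11.73 and 12.87, then 9.62, 12.75 and 12.99, then 9.38, 11.02 and 12.12. For both, as for Awat1 and Far2, oxazolone array 1 was the lowest oxazolone array and urushiol array 3 the highest urushiol array. The markers Cidea, Krt79, Mgst1 and Dgat2l6 had this order too. Gata6, Lrig1 and Prdm1 were highest on another urushiol array, and Plin5 was level on urushiol arrays 2 and 3. Of these 10 markers 0 rose and 1 fell by limma with oxazolone (2 with an unadjusted p under 0.05), and 1 rose and 1 fell with urushiol. Their median difference was -0.01 with oxazolone, with 5 above and 5 below control, and -0.72 with urushiol, with 2 above and 8 below. Their summed log2 level was 14.78 to 15.82 in control skin, 14.93 to 16.63 with oxazolone and 15.12 to 15.87 with urushiol. That sum rests mainly on Krt79, which read 14.25 to 16.35 over the 9 arrays. The markers' part in the results was not tested.

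Adipocyte and muscle markers moved with the fatty acid and ester genes that fell. Of 11 adipocyte markers 9 fell with oxazolone and 8 with urushiol, with medians of -1.73 and -1.65, and their summed log2 level was 18.02 to 18.81 in control skin, 15.18 to 15.38 with oxazolone and 15.71 to 16.37 with urushiol. The adiponectin gene Adipoq read 8.90, 9.85 and 9.33 in control skin, 7.74, 7.51 and 7.63 with oxazolone and 7.33, 7.45 and 7.83 with urushiol. All of these values lay above the array medians of 5.53 to 5.64. Of 15 skeletal muscle markers 15 fell with oxazolone and 14 with urushiol, by medians of 9.36 and 5.49. The centred muscle mean was 5.65, 5.64 and 3.10 on the control arrays and lowest on control array 3. That array was the lowest control for 5 and the highest for 14 of the 22 fatty acid and ester genes. Among those that fell, it was the lowest control for Scd3, Acacb, Gpam and Lpin1 and the highest for Elovl5. For Fasn, Me1 and Dgat2 it lay between the other controls. The summed muscle level was 19.89 to 21.81, then 11.09 to 13.21, then 15.42 to 16.33. The part of both marker groups in the falls was not tested.

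**Figure D3:**
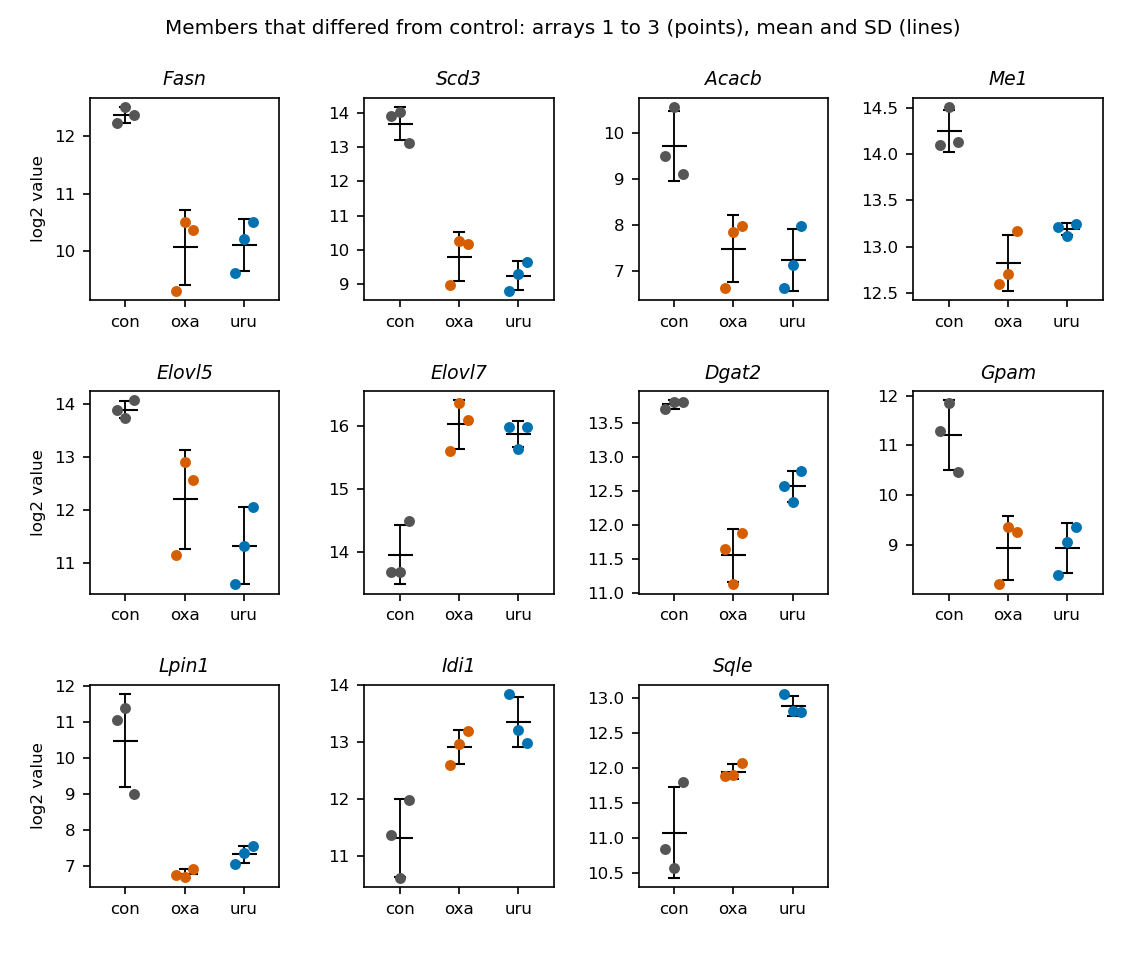
Log2 values of the 11 genes that differed from control in either model, in control (con), oxazolone (oxa) and urushiol (uru) skin; points are arrays 1 to 3 from left to right, and lines give the mean and SD. For each of these genes every challenged array lies on 1 side of the 3 control arrays, and Dgat2, Lpin1 and Sqle show 3 separate bands.

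The sterol arm behaved otherwise. Idi1, the isomerase that activates the isoprenoid unit, read 11.37, 10.61 and 11.98 in control skin, 12.60, 12.97 and 13.19 with oxazolone and 13.85, 13.22 and 12.99 with urushiol. All 6 challenged arrays were above the controls. Idi1 rose by 1.60 ± 0.38 with oxazolone (adjusted p = 0.0313) and by 2.03 ± 0.38 with urushiol (adjusted p = 0.0145). The oxazolone difference no longer passed when a control (array 1, 0.0872, or 2, 0.0752), any oxazolone array (0.0625, 0.0842 and 0.0945 for arrays 1 to 3) or a urushiol array (2, 0.0538, or 3, 0.0502) was left out, nor with the replicate number as a block (0.0507). The urushiol call was lost without urushiol array 1 (adjusted p = 0.0521). In limma fits of the 2 groups alone neither Idi1 difference passed (adjusted p = 0.0746 with oxazolone and 0.0585 with urushiol). Sqle, the squalene epoxidase that commits squalene to sterols, read 10.85, 10.58 and 11.81 in control skin, 11.89, 11.90 and 12.07 with oxazolone and 13.06, 12.81 and 12.80 with urushiol. The 3 groups did not overlap in that order. Sqle rose by 1.81 ± 0.29 with urushiol (adjusted p = 0.00901), while 0.87 ± 0.29 with oxazolone did not pass (adjusted p = 0.0816). It passed without control array 3 (1.24, adjusted p = 0.000908), with a filter on dim genes (adjusted p = 0.0499) and with array weights (adjusted p = 0.0123).

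Cyp51, the demethylase of lanosterol, read 11.14, 10.59 and 11.99 in control skin, 11.85, 12.26 and 12.78 with oxazolone and 13.01, 12.35 and 12.37 with urushiol. Its differences of 1.06 ± 0.40 (adjusted p = 0.111) and 1.34 ± 0.40 (adjusted p = 0.0633) passed without control array 3 (adjusted p = 0.026 and 0.0138). Hmgcs1, the synthase at the head of the pathway, stood at 0.14 ± 0.27 and 0.60 ± 0.27, and Nsdhl, a later sterol dehydrogenase, at 0.09 ± 0.21 and 0.61 ± 0.21. Both passed for urushiol without control array 3 (adjusted p = 0.0285 and 0.0403). Lss, which closes the sterol ring, stood at 0.04 ± 0.21 and 0.56 ± 0.21, and passed for urushiol without oxazolone array 1 (adjusted p = 0.0494). Of the remaining genes, Mvk stood at -0.18 ± 0.12 and 0.28 ± 0.12, the decarboxylase Mvd at -0.14 ± 0.13 and 0.10 ± 0.13, Fdps at -0.22 ± 0.23 and 0.42 ± 0.23, the squalene synthase Fdft1 at -0.02 ± 0.16 and 0.46 ± 0.16, and the desaturase Sc5d at -0.04 ± 0.18 and 0.41 ± 0.18. All 5 were below control with oxazolone and above it with urushiol in their means, and none passed, although Mvk did for urushiol with array weights (0.38, adjusted p = 0.0255). With oxazolone, Hmgcs1, Lss and Nsdhl took the opposite sign after quantile renormalisation (-0.35, -0.05 and -0.07). Dhcr7, the last reductase, was the 1 sterol gene below control with urushiol. It stood at -0.47 ± 0.18 with oxazolone and -0.37 ± 0.18 with urushiol, which did not pass, but did with the replicate number as a block (adjusted p = 0.0187 and 0.0299). That block pairs control arrays with the models by number, a pairing that the arrays did not show. Counted over the 12 genes, 1 rose with oxazolone (8.33%, against 9.63% of all genes) and 2 with urushiol (16.7%, against 9.96%). With array weights the counts were 3 and 7, and in fits of the 2 groups alone 0 and 1. Without control array 3 the counts were 3 and 5, and without urushiol array 1 the urushiol count was 1. The oxazolone count was 0 without control array 1 or 2, without any single oxazolone array, and without urushiol array 2 or 3.

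Cell division and keratinocyte markers are given beside the sterol genes. Of 15 cell division markers 2 rose with oxazolone and 3 with urushiol, against 9.63% and 9.96% of all genes. All 15 lay above control in both models, with medians of 1.41 and 1.57. In each model 14 had an unadjusted p under 0.05 by limma, against 34.1% and 32.2% of all genes. Their centred mean was -1.51, -1.82 and 0.29 on the control arrays, 0.49, 0.51 and 0.42 on the oxazolone arrays and 0.36, 0.60 and 0.65 on the urushiol arrays. The sterol means on these arrays were -0.34, -0.63 and 0.05, then -0.34, -0.02 and 0.13, then 0.51, 0.33 and 0.30. Of 10 keratinocyte markers 4 rose and 2 fell with oxazolone, and 6 rose and 2 fell with urushiol, with a summed log2 level of 19.56 to 20.43 in control skin, 20.76 to 21.42 with oxazolone and 21.42 to 21.67 with urushiol. Control array 3 was the highest control for 10 of the 12 sterol genes and control array 2 the lowest for 11. The part of these markers in the sterol values was not tested.

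Urushiol and oxazolone skin were compared directly, and 0 of the 37 genes passed by limma, where 0.0166% of all genes did (0.00664% higher and 0.00995% lower with urushiol). Unadjusted, 9 of the 37 had a p under 0.05, against 5.88% of all genes. Of these 9, the 7 sterol genes Mvk, Fdps, Fdft1, Sqle, Lss, Nsdhl and Sc5d were higher with urushiol, as were Dgat2 and Elovl1. All 12 sterol genes had a higher mean with urushiol, with a median difference of 0.46, against a median of -0.24 over the fatty acid and ester arm and close to 0 over all genes (-0.003). For 8 of the 12 the urushiol arrays all lay above the oxazolone arrays, which held for 5.35% of all genes. Over the 37 genes the arrays of the models were apart for 10, all higher with urushiol, against 9.74% of all genes, 4.39% being lower. Without oxazolone array 1, which was the lowest oxazolone array for 11 of the 12, the median was 0.30 and 11 of 12 genes were higher. Of 10 other sterol genes, which are not among the 37, 6 had a higher mean with urushiol and 4 a lower one. Their median difference was 0.21, and 0 of them passed. The arrays of the models were apart for 2 of these 10, which were higher with urushiol.

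Among the listed sterol genes, Sqle had the widest gap, 0.94 ± 0.29 (95% interval 0.25 to 1.62, adjusted p = 0.6). Fdps, the farnesyl diphosphate synthase, read 9.60, 9.68 and 10.11 with oxazolone and 10.67, 10.41 and 10.24 with urushiol, a difference of 0.64 ± 0.23 (adjusted p = 0.747). Mvk, mevalonate kinase, read 7.12, 7.23 and 7.36 with oxazolone and 7.48, 7.80 and 7.80 with urushiol. Both groups overlap its controls at 7.37, 7.30 and 7.57. Its difference was 0.46 ± 0.12 (adjusted p = 0.438). The groups of Fdps and Mvk were apart, but neither gene passed. For Fasn and Idi1 the models differed by 0.05 (95% interval -0.77 to 0.87) and 0.43 (95% interval -0.45 to 1.32), so differences up to those bounds remain possible.

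**Figure D4:**
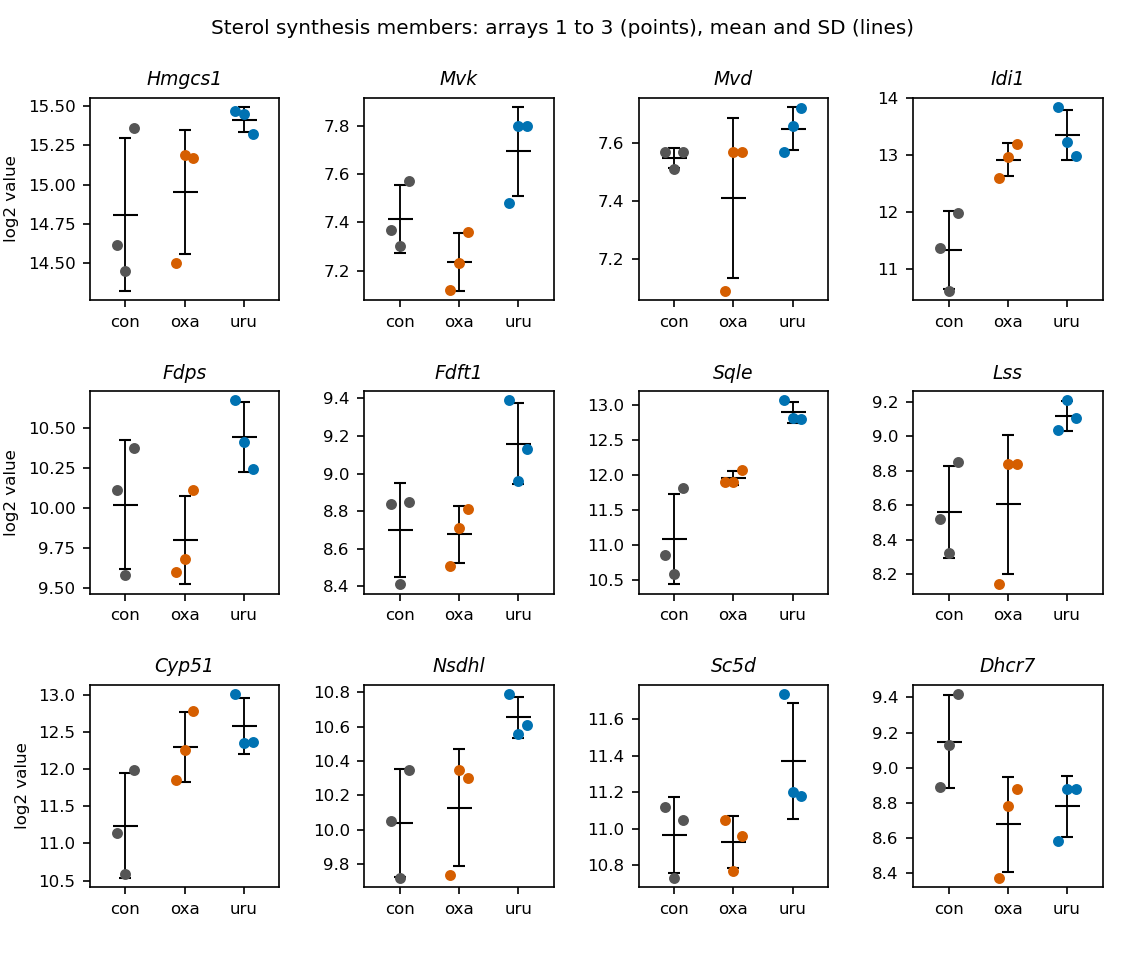
Log2 values of the 12 measured sterol genes in control (con), oxazolone (oxa) and urushiol (uru) skin; points are arrays 1 to 3 from left to right, and lines give the mean and SD. For Hmgcs1, Mvk, Fdps, Fdft1, Sqle, Lss, Nsdhl and Sc5d every urushiol point is above every oxazolone point.

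The contrast of the arms was put as 1 number per array, the mean of the 12 sterol genes minus that of the 22 fatty acid and ester genes after centring each gene on its 9 arrays. It was -0.81, -1.15 and -0.54 on the control arrays (mean -0.83, SD 0.30), 0.58, -0.29 and -0.10 on the oxazolone arrays (mean 0.06, SD 0.46) and 1.31, 0.81 and 0.18 on the urushiol arrays (mean 0.77, SD 0.57), with n = 3 in each group. Every challenged array stood above every control array, and the 2 models overlapped. As the genes were chosen with results known, no p is given for it.

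**Figure D5:**
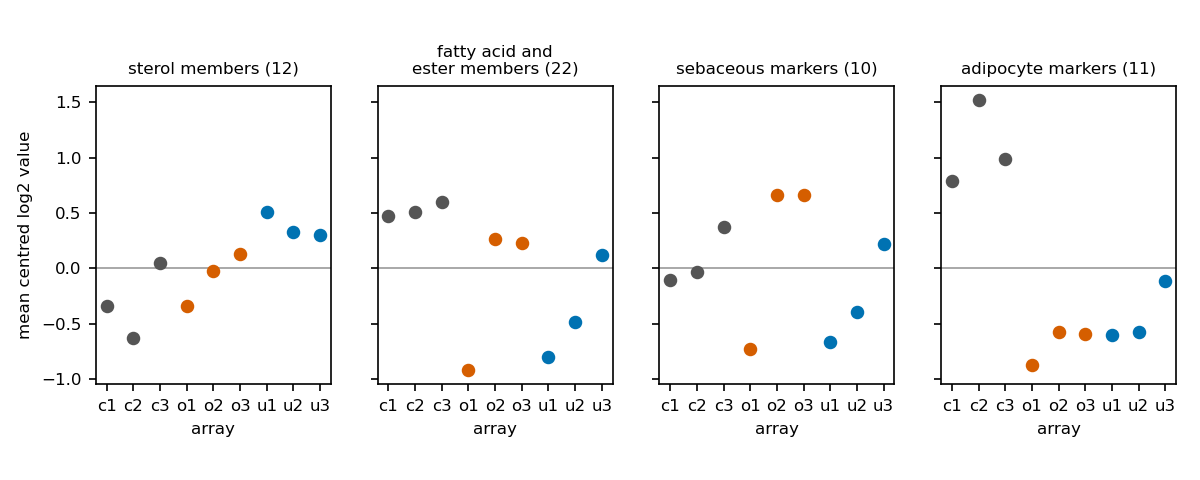
Mean centred log2 value per array of the sterol genes, the fatty acid and ester genes, sebaceous markers and adipocyte markers (number of genes in parentheses); c, o and u with a number are the control, oxazolone and urushiol arrays. Sterol means are highest on the urushiol arrays, adipocyte means are high on the controls alone, and oxazolone array 1 is low for the fatty acid and ester genes as for the sebaceous markers.

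Promoters of the members are shown because the measured sterol genes of the list lay higher together with urushiol than with oxazolone. The 10 other sterol genes were divided, with 6 higher and 4 lower. RefSeq's table for GRCm38.p6 held promoters, from 250 bases before to 50 after a start, for 32 of the 41 genes. The sterol regulatory element TCACNCCAC, a letter pattern bound by SREBP, was searched on both strands, as were CCAAT, the box bound by NF-Y, and the E-box CACGTG. The box bound by NF-Y was present for 10 of 10 sterol genes, 10 of 18 fatty acid and ester genes and 4 of 4 regulators with a promoter, against 41.1% of all 27025 genes. These include Msmo1, Soat1 and Srebf1, which have a promoter in the table but whose levels were not analysed here. TCACNCCAC was found for Hmgcs1 alone among the 32, against 1.44% of all genes, and CACGTG for Elovl5, Sc5d, Dhcr7 and Insig1, against 8.09%. A match describes letters and not a bound site, and its absence says only that these letters are not in the window.

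The 150 bases before the start are printed for 4 sterol genes that stood higher with urushiol and for Fasn and Lpin1, which fell. Lpin1 was picked as an example with neither the sterol element nor a CCAAT box in its window. Its window belongs to a start inside the gene, which spans chr12:16535669-16653903. The Fasn window also belongs to a start inside its gene, which spans chr11:120805958-120825166. Of the other genes that fell, Fasn, Acacb, Me1, Elovl5 and Gpam hold a CCAAT box in a promoter, Scd3 does not, and Dgat2 has no promoter there. Sequences run 5′ to 3′ on the gene's strand, and capitals mark the CCAAT box on either strand (its complement reads ATTGG) and in Hmgcs1 also the sterol element, at position -137 from the start. Where 2 boxes overlap, as in Fasn, their capitals run together.
Hmgcs1, chr13:119690201-119690350, plus strand: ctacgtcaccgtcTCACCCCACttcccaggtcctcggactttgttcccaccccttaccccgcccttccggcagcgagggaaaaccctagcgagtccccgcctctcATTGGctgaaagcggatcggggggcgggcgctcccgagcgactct
Idi1, chr13:8885456-8885605, plus strand: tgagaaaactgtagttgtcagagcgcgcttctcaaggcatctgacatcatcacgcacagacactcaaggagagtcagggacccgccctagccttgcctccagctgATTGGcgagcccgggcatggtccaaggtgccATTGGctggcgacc
Mvk, chr5:114444119-114444268, plus strand: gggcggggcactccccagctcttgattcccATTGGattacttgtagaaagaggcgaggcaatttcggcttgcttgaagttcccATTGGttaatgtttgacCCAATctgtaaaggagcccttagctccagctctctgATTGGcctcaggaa
Cyp51, chr5:4104698-4104847, minus strand: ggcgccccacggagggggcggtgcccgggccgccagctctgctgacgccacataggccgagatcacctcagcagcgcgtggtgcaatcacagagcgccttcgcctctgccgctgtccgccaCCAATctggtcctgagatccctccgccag
Fasn, chr11:120824548-120824697, minus strand: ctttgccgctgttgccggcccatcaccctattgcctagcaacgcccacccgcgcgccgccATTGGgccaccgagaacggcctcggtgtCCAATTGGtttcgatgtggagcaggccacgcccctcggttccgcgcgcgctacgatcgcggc
Lpin1, chr12:16610967-16611116, minus strand: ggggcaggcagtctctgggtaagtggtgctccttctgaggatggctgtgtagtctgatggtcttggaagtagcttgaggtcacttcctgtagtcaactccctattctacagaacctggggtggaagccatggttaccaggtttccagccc

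In Hmgcs1 the box lies at position -45 from the start, and in Cyp51 at -29. Mvk holds 4 boxes in the 150 bases and Fasn 3, of which 2 overlap.

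Of the regulators, no measured one passed. Srebf2, the SREBP of the sterol route, read 9.44, 9.31 and 9.96 in control skin, 9.28, 9.61 and 9.61 with oxazolone and 9.59, 9.86 and 9.90 with urushiol. Insig1, a brake on SREBP and itself an SREBP target, read 10.73, 10.33 and 11.09, then 9.92, 11.24 and 10.74, then 10.71, 10.45 and 10.54. Pparg read 9.27, 10.19 and 9.93, then 8.65, 9.53 and 9.51, then 8.80, 9.12 and 9.84. Groups overlap for all 3 genes. Srebf2 stood at -0.07 ± 0.19 and 0.21 ± 0.19, Insig1 at -0.08 ± 0.34 and -0.15 ± 0.34, and Pparg at -0.57 ± 0.38 and -0.54 ± 0.38, with adjusted p from 0.333 to 0.893.

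Other genes of these routes, taken from lists outside the 41, were counted in the same way. Of 33 other fatty acid and ester genes 3 rose and 9 fell with oxazolone, and 3 rose and 7 fell with urushiol, against 9.63% and 6.92%, and 9.96% and 6.43%, of all genes. Leaving out 1 array moved the rises between 0 and 6 and the falls between 5 and 11 with oxazolone. With urushiol the rises lay between 0 and 5 and the falls between 5 and 10. The rises were 0 in both models without control array 1 or 2, and 6 and 5 without control array 3. With oxazolone they were 1, 1 and 0 without oxazolone arrays 1 to 3 and 1 without urushiol array 3, and with urushiol 1 without urushiol array 3. The falls with oxazolone were 6 and 5 without control array 1 and 2. Gpd1, which makes the glycerol backbone, changed by -4.09 ± 0.66 and -3.85 ± 0.66, Thrsp, a partner of lipogenesis, by -2.86 ± 0.38 and -2.20 ± 0.38, and the lipid droplet gene Pnpla3 by -2.16 ± 0.18 and -1.98 ± 0.18. The control arrays of Gpd1 read 12.45, 12.94 and 10.27, so control array 3 was low as for Lpin1. Of 10 other sterol genes 3 rose with oxazolone and 6 with urushiol, and none fell. With the replicate number as a block 1 fell in each model, and after quantile renormalisation 1 fell with oxazolone. Hsd17b7, a sterol reductase, rose by 1.45 ± 0.36 and 1.77 ± 0.36, Nus1, of dolichol synthesis, by 1.22 ± 0.15 and 1.48 ± 0.15, and Ebp, the sterol isomerase, by 0.97 ± 0.14 and 1.22 ± 0.14. The sterol count was 6 and 7 without control array 3. It was 2 with oxazolone without any other single array except oxazolone array 1, where it was 4, and with urushiol it was 2 or 3 without control array 1 or 2 or any single urushiol array. Of 9 further regulators 1 rose and 3 fell in each model: the cholesterol exporter Abcg1 rose by 0.87 ± 0.17 and 1.08 ± 0.17, and Mlxipl, the sugar-sensing activator of lipogenesis, fell by 1.76 ± 0.41 and 1.72 ± 0.41, with Rxra and Mylip.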

How the data were processed

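Total RNA of 9 neck skin samples was read on Affymetrix arrays. The authors deposited 1 log2 value for each transcript cluster and array. The submitters' processing notes name RMA, Affymetrix Expression Console 1.4 and Transcriptome Analysis Console, with no roles or order, and no source used here gives the genome build. Of 72688 features, 6732 array controls were left out. Of the other 65956, 30604 carry 1 gene symbol, 2146 several and 33206 none, and 827 symbols were updated by gene identifier through RefSeq. The depth of an array cannot be given as a count, and the number of arrays limits the precision.

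The values were used as deposited. A limma model (3.58.1, in R 4.3.3) with a mean per group was fitted to all 9 arrays, so that the groups share 1 estimate of the spread, and p-values were adjusted by Benjamini-Hochberg over 30142 genes, with a threshold of 0.05. The scripts were tested on simulated data. The smallest two-sided p that an exact permutation test of 3 against 3 arrays can give is 0.1, so none is reported.

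The 41 genes, the other lists and the tests were chosen with earlier results of these data known. Values per array were to be given for the 5 genes of each arm with the largest called differences in a comparison, the regulators and the Scd genes, and for other genes of the pathway for the 3 largest called differences per list. Dgat2, Me1, Elovl7, Elovl3, Awat1, Awat2, Far2, Fdps, Mvk, Cyp51, Pnpla3, Mc5r, Fa2h, Adipoq, Abcg1 and other genes shown beyond that rule were chosen after their values were seen.

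Same-numbered oxazolone and urushiol arrays deviated together from their group means, with correlations of 0.201, 0.197 and 0.124 across genes, and were taken to pair. The array numbers come from the sample titles. Control array 3 and oxazolone array 2, with different numbers, reached 0.285, so correlations of this size do not establish a pairing. The differences, p-values and intervals given between the models come from the fit without a pairing. Control arrays did not pair with either model. A block by replicate number in a comparison with control therefore fits a pairing that was not seen, which limits every such call above. Alternatives were the replicate number as a block, averaging all clusters of a gene, leaving out dim genes, quantile renormalisation, median centring, a trended and robust variance prior, array weights, the 2 groups alone and leaving out each array.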

Additional observations from a re-analysis of the deposited data

Results flagged for a closer look

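The difference of Mvk between urushiol and oxazolone skin was 0.46 on the log2 scale. It stands out because the 3 oxazolone arrays lay below the control mean and the 3 urushiol arrays above it. The difference was tested in the limma fit (unadjusted p = 0.00539) and did not pass over all genes (adjusted p = 0.438).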

How the results depend on the processing

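Of the 20 differences that passed, 12 also passed without each array in turn: Fasn, Scd3, Me1, Elovl7 and Dgat2 in both models, Lpin1 with oxazolone and Sqle with urushiol. None of the 49 sign changes, over all alternatives, was in a difference that passed. Genes higher with oxazolone numbered 4 with a filter on dim genes, 5 with array weights and 1 with the 2 groups alone, and genes higher with urushiol 8 with array weights. Genes lower with oxazolone numbered 5 with the 2 groups alone, as did genes lower with urushiol. That setting lost the calls of Acacb, Gpam and Idi1 in both models and of Lpin1 with urushiol. Leaving out 1 array gave 1 to 5 higher with oxazolone, 2 to 6 higher and 4 to 8 lower with urushiol, and 5 to 11 genes that differed among the 3 groups by limma's F test, against 11 with all arrays. The contrast of the arms kept its sign under the alternatives run.

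With the replicate number as a block, 2 genes were higher and 10 lower with oxazolone, 4 higher and 9 lower with urushiol, and 0 differed between the models. A block in a fit of the 6 challenged arrays alone, added after seeing the data, also gave 0.

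Against control with oxazolone, quantile renormalisation gave -0.08 for Elovl6, -0.35 for Hmgcs1, -0.05 for Lss and -0.07 for Nsdhl, and median centring -0.02 for Lss. Array weights gave 0.12 for Far2 and 0.04 for Srebf2 with oxazolone, 0.43 for Elovl6, 0.43 for Fads2 and 0.09 for Agpat2 with urushiol, and 0.02 for both Scd1 and Acacb between the models. The cause of these changes was not tested.

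Leaving out 1 array moved 22 differences across 0. With oxazolone the ranges were -0.17 to 0.06 for Fdft1, -0.16 to 0.04 for Sc5d, -0.04 to 0.42 for Hmgcs1, -0.08 to 0.28 for Lss, -0.07 to 0.28 for Nsdhl, -0.47 to 0.76 for Far2, -0.2 to 0.13 for Srebf2, -0.39 to 0.27 for Insig1, -0.22 to 0.02 for Mvd and -0.38 to 0.02 for Elovl1. With urushiol they were -0.4 to 0.45 for both Elovl6 and Fads2, -0.16 to 0.06 for Agpat2 and -0.34 to 0.04 for Insig1. Between the models they were -0.33 to 0.3 for Fasn, -0.06 to 0.3 for Acaca, -0.05 to 0.21 for Dhcr7, -0.27 to 0.25 for Pparg, -0.8 to 0.09 for Scd1, -0.36 to 0.02 for Elovl7, -0.42 to 0.24 for Insig1 and -0.66 to 0.07 for Acacb.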
